A study of Homo sapiens with 6 samples.

Results

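The pocket proteins, the MuvB core and the transcription factors MYBL2 and FOXM1 are the switchable machinery that represses and then activates cell cycle genes. Their 10 genes, RB1, RBL1, RBL2, LIN9, LIN37, LIN52, LIN54, RBBP4, MYBL2 and FOXM1, were found by symbol among the 60564 genes listed in the deposited counts, each in 1 row. They were chosen with the difference between CNTNAP2-203 OE and control in view, in which FOXM1 stands out by falling. Their own differences are therefore given as a description, without a test.

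The cells are CAL27, an established human line from a squamous carcinoma of the tongue. CNTNAP2-203 OE (overexpression) cells were infected with lentivirus carrying CNTNAP2-203, which is named as a transcript of CNTNAP2. Control cells carried a control vector, which the sample descriptions name EGFP, and the labels call their genotype WT. All cells had been selected with puromycin at 5 μg/ml for 2 weeks. Each group held 3 RNA sequencing libraries, and the labels do not say whether these came from separate cultures or infections, and p-values here speak only of the spread among the 6 libraries, which could be technical.

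As background, RB1 binds the activating E2F factors, while RBL1 and RBL2 join E2F4 or E2F5, a DP partner and the MuvB core in the DREAM complex, which silences cell cycle genes in resting cells. When cells enter the cycle, cyclin-dependent kinases phosphorylate the pocket proteins and MuvB is set free. It then binds MYBL2 and later recruits FOXM1, and in this form activates genes of G2 and mitosis.

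Library totals lay between 36843190 and 42412703 counts, of which mitochondrial genes took 7.55% to 8.55%. CNTNAP2 had 140022, 156055 and 119280 counts in CNTNAP2-203 OE replicates 1, 2 and 3, against 0, 3 and 4 in the controls, so the introduced gene separates the groups as labelled. All 10 squamous epithelial markers fixed for the purpose (among them KRT5, KRT14 and TP63) were present, with summed levels of 14504 to 17598 counts per 1000000 (CPM) in CNTNAP2-203 OE and 14485 to 16402 CPM in control. Markers of fibroblasts, leukocytes and endothelium, each set summed on its own, reached at most 45.9, 71.6 and 11.5 CPM in any library. The sum of each set had overlapping ranges between the groups. Single squamous markers differed in both directions, though none of the 10 was called. KRT17, DSG3 and ITGB4 lay below every control in CNTNAP2-203 OE (12.8% of all tested genes did so). KRT5 and EPCAM lay above every control (13.7%), and the rest overlapped. KRT17 was at 1559 against 2316 CPM, and KRT5 at 6500 against 5126 CPM. Single markers of the other sets were present: COL1A1, CD14 and CD68 had means of 25.7, 25.0 and 33.9 CPM in CNTNAP2-203 OE. In control they had means of 29.6, 28.1 and 31.1 CPM. The endothelial receptor KDR had no count. CNTNAP2-203 OE replicate 3 stood somewhat apart. It had the lowest total, the fewest genes with a count (25336, against up to 27002) and the largest mean difference from its own group (0.73 on the log2 CPM scale as a root mean square over genes, against 0.57 to 0.65 for the others). Relative to the other CNTNAP2-203 OE libraries it was lower in genes that span much of the genome: the median log2 difference was -0.19 in the fifth of genes with the longest spans and 0.16 in the fifth with the shortest. Values without it are given where they matter. Control replicate 1 also differs in layout: per the labels it lacks its reverse reads and was submitted as single-end.

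The starting stretch of these genes shows which of them carry the DNA words read by E2F and by LIN54. RefSeq promoter windows (GRCh38.p14, 250 bases before to 50 bases after the gene start that RefSeq gives) matched 9 of the 10 members by symbol, all except FOXM1. Those of RBL1 and LIN52 are printed because they are the 2 members whose window holds a full E2F word, and that of MYBL2 because it is one of the members the results turn on. They are written 5′ to 3′ on the strand of the gene in lower case. Capitals mark the E2F words TTTCCCGC, TTTCGCGC, TTTGCCGC and TTTGGCGC and the shorter core GGCGGGA, each on either strand. The core was chosen after the sequences were seen.
RBL1, chr20:37095948-37096247, minus strand: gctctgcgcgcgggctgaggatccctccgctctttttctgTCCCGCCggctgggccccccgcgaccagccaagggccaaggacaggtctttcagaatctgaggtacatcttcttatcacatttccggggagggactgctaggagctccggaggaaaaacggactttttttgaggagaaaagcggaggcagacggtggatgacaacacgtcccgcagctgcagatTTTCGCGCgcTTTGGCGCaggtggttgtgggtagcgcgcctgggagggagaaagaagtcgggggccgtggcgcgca
LIN52, chr14:74084706-74085005, plus strand: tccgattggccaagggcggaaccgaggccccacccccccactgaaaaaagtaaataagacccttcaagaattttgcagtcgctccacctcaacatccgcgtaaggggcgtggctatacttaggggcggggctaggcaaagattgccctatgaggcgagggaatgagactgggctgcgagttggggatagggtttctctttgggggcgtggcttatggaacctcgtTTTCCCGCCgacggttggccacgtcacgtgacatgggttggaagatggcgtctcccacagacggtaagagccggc
MYBL2, chr20:43666864-43667163, plus strand: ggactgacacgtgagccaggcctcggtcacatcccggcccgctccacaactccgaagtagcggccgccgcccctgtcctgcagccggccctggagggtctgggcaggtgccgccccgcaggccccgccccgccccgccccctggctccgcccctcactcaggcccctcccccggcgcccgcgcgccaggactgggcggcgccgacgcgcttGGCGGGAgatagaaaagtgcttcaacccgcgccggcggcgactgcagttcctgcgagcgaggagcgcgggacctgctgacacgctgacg

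RBL1 held 2 E2F words, starting 26 and 16 bases before the start site, and 1 core starting 210 bases before it. LIN52 held 1 E2F word 25 bases before the start, which overlaps a core 23 bases before it. MYBL2 held no E2F word and 1 core, 39 bases before the start. LIN54 and RBBP4 also held the core, so it was found in 5 of 9 members (55.6%). Of 27305 RefSeq promoters of this length, 3.33% held an E2F word and 15.5% the core. The words TTTGAA and TTCGAA, which match the cell cycle genes homology region bound by LIN54, were searched on both strands and occur in 16.6% of all promoters. Among the members they were found in the windows of RBL2 and LIN54. The 4 windows of RB1, RBL2, LIN9 and LIN54 lie wholly inside the genes as GENCODE 29 draws them, so they do not show the stretch before the start in that annotation. Of the printed windows, the RefSeq starts of LIN52 and MYBL2 lie 160 and 95 bases inside the GENCODE genes, and distances here count from the RefSeq start. A match is a description of the letters, and binding was not measured here.

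The members are spread over 8 chromosomes (GENCODE 29, GRCh38). RB1 is at 13:48303726-48599436, RBL1 at 20:36996349-37095995 and RBL2 at 16:53433977-53491649. Of the MuvB genes, LIN9 is at 1:226231149-226309869, LIN37 at 19:35748361-35754519, LIN52 at 14:74084796-74201235, LIN54 at 4:82909973-83012926 and RBBP4 at 1:32651142-32686211. MYBL2 is at 20:43667019-43716496. RBL1, LIN9, LIN54 and FOXM1 are on the minus strand and the others on the plus strand.

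FOXM1, the forkhead factor that joins MuvB and MYBL2 on genes of G2 and mitosis, was lower in CNTNAP2-203 OE, and MYBL2, the partner that binds MuvB before it, was higher. FOXM1 was at 40.8, 43.7 and 32.9 CPM in CNTNAP2-203 OE replicates 1, 2 and 3, and at 74.0, 65.6 and 62.5 CPM in control replicates 1, 2 and 3. CPM values are scaled by TMM, a correction for library composition. Every CNTNAP2-203 OE library lay below every control, and the gap between the nearest libraries was 0.51 on the log2 scale. The means were 39.1 ± 5.61 CPM and 67.4 ± 5.96 CPM (SD, n = 3 each), a log2 fold change of -0.78 (SE 0.133), or 0.581-fold. Of 18786 tested genes, 717 had a lower log2 fold change. Without CNTNAP2-203 OE replicate 3, the library lowest in FOXM1, the log2 fold change was -0.67, and over the 6 fits that leave out 1 library it lay between -0.87 and -0.67.

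MYBL2 was at 125, 140 and 151 CPM in CNTNAP2-203 OE replicates 1, 2 and 3, and at 93.5, 82.8 and 76.6 CPM in the controls. The groups did not overlap, with a gap of 0.42 on the log2 scale. The means were 139 ± 13.0 CPM and 84.3 ± 8.52 CPM (SD, n = 3 each). The log2 fold change was 0.72 (SE 0.116), or 1.65-fold, and 17995 of the tested genes had a lower one. It stayed between 0.65 and 0.80 when any 1 library was left out.

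The balance of the MuvB activators is given as a description. FOXM1 lay lower and MYBL2 higher in every CNTNAP2-203 OE library, so their ratio could not overlap between the groups. Per gene length, in FPKM (fragments per kilobase of transcript and 1000000 fragments), the ratio of FOXM1 to MYBL2 was 0.183, 0.177 and 0.123 in CNTNAP2-203 OE replicates 1, 2 and 3. The ratio in the controls was 0.447, 0.447 and 0.460. The 3 controls thus lay within a narrow band, and CNTNAP2-203 OE replicate 3 was the lowest of all libraries.

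**Figure D1:**
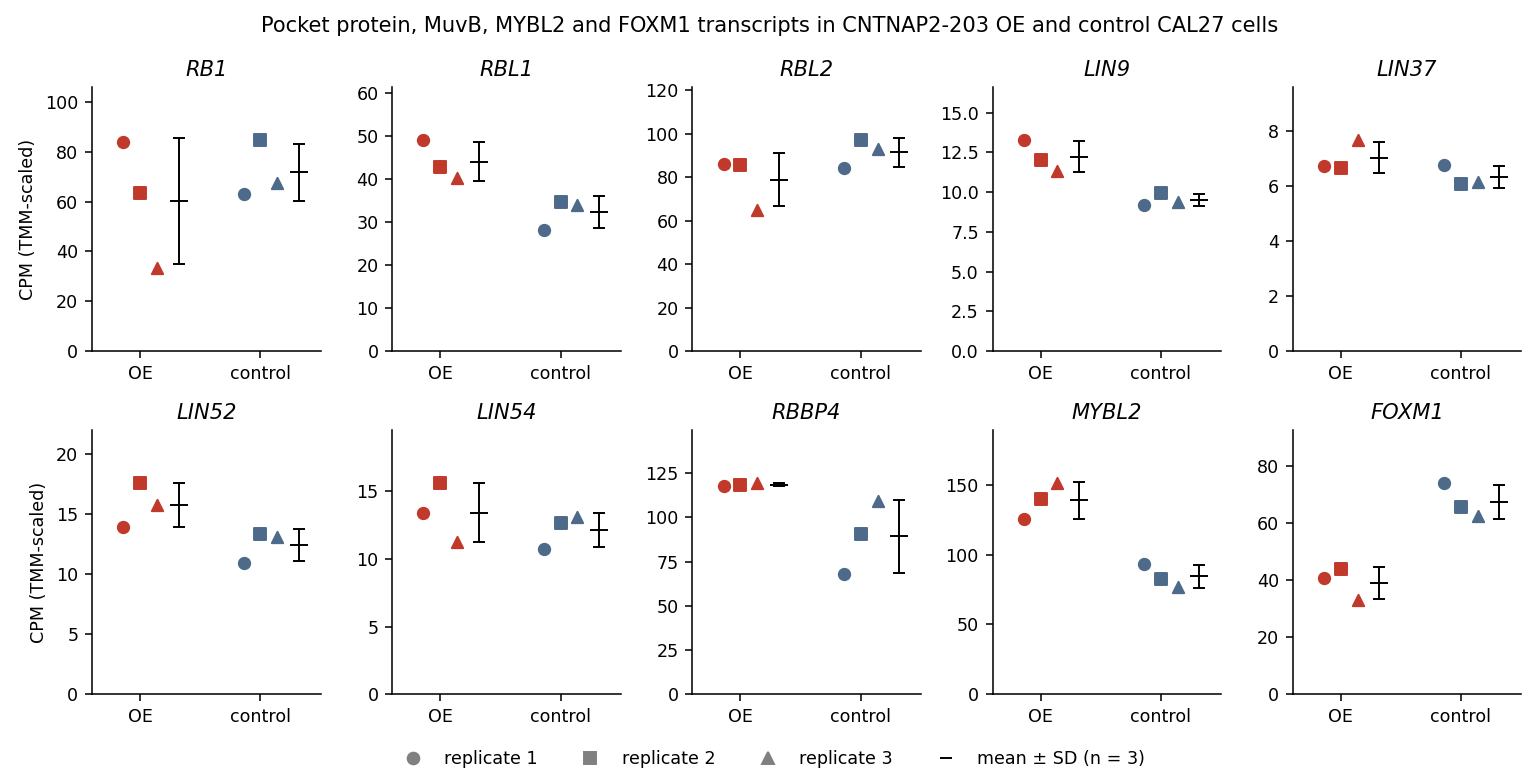
TMM-scaled CPM of each member (linear vertical axes from 0), with 1 symbol per library, CNTNAP2-203 OE (OE) left of control, and bars for mean ± SD of 3 libraries. FOXM1 lies lower in every OE library than in any control, RBL1, LIN9, LIN52, RBBP4 and MYBL2 lie higher, and the groups of RB1, RBL2, LIN37 and LIN54 overlap.

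FOXM1 lies at 12:2857681-2877155 on the minus strand (GENCODE 29, GRCh38). Its head overlaps RHNO1, a DNA damage checkpoint gene on the plus strand, by 898 bases, and its tail overlaps ITFG2 by 2111 bases. The library kit does not mark strand, so reads from the shared stretches cannot be told apart. RHNO1 was at 25.9, 31.8 and 33.5 CPM in CNTNAP2-203 OE and at 11.8, 30.1 and 27.2 CPM in control. Its control replicate 1 was far below the other libraries, and the groups overlapped. That library lacks its reverse reads per the labels, and whether this plays a part at this locus was not tested. Its log2 fold change was 0.40 (SE 0.336, edgeR quasi-likelihood adjusted p = 0.588). ITFG2 was at 11.9 ± 4.42 against 11.9 ± 0.300 CPM (SD, n = 3 each), and TULP3, the next gene beyond the head of FOXM1, at 34.6 ± 1.58 against 37.3 ± 1.95 CPM. Neither passed the test (adjusted p = 0.996 and 0.624). Around all members, 47 listed genes overlapped a member or were its nearest neighbour on either side. Of these, 19 had enough counts to be tested and none was called in edgeR, against 1.39% of all tested genes. None was called in DESeq2, which called 650 genes higher and 475 lower over all. Without any 1 library none was called either, where 8 to 323 genes were called higher and 5 to 237 lower over all. Among 19 genes such shares give few calls, so nothing is read from this. SYNC, which overlaps RBBP4, was the 1 tested neighbour with an unadjusted p under 0.05 (0.743 ± 0.179 against 1.30 ± 0.299 CPM, adjusted p = 0.242).

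Among the pocket proteins, RBL1 was higher in CNTNAP2-203 OE, while RB1 and RBL2 had lower means with overlapping groups. RBL1 (p107), which is itself an E2F target in proliferating cells, was at 49.1, 42.9 and 40.2 CPM in CNTNAP2-203 OE and at 28.2, 34.8 and 34.1 CPM in control. The groups did not overlap, and the log2 fold change was 0.45 (SE 0.128). RBL2 (p130), the pocket protein of resting cells, was at 86.3, 85.5 and 65.04 CPM against 84.2, 97.2 and 93.0 CPM, with a log2 fold change of -0.21 (SE 0.132). CNTNAP2-203 OE replicate 3 was the low library, and without it the log2 fold change was -0.09.

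RB1, the retinoblastoma tumour suppressor, was the most variable member. It was at 83.9, 63.4 and 33.3 CPM in CNTNAP2-203 OE and at 63.2, 84.7 and 67.3 CPM in control. The first of these libraries lay near the highest control, and replicate 3 lay far under all others. The log2 fold change was -0.25 (SE 0.327) with all libraries and 0.04 without CNTNAP2-203 OE replicate 3, so its sign rests on that library. RB1 spans 295711 bases in the annotation and lies in the fifth of genes with the longest spans, the fifth in which that library was lowest. Whether span plays a part in the RB1 value was not tested. The FPKM ratio of RBL1 to RBL2 was 0.694, 0.612 and 0.754 in CNTNAP2-203 OE and 0.407, 0.437 and 0.447 in control, and the groups did not overlap. RBL1 by itself already lay apart, and the members were chosen on this comparison, so the ratio is a description. Of the other ratios taken, RB1 to RBL1 did not overlap and MYBL2 to LIN9 did. The latter was 15.1, 18.6 and 21.4 in CNTNAP2-203 OE and 16.4, 13.4 and 13.2 in control.

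The MuvB core showed small differences, all toward higher means in CNTNAP2-203 OE. LIN9, the scaffold subunit that contacts MYBL2, was at 13.3, 12.0 and 11.3 CPM against 9.18, 9.93 and 9.37 CPM, with no overlap and a log2 fold change of 0.36 (SE 0.129). LIN52, the short subunit that links MuvB to the pocket proteins and to MYBL2, was at 13.9, 17.6 and 15.8 CPM against 10.9, 13.3 and 13.1 CPM. Its groups were apart by 0.06 on the log2 scale, and its log2 fold change was 0.34 (SE 0.147).

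RBBP4, a histone-binding protein shared with PRC2 and other chromatin complexes, was at 118, 118 and 119 CPM in CNTNAP2-203 OE. In control it was at 67.8, 90.7 and 109 CPM, so the spread lay among the controls. The lowest, replicate 1, is the library whose reverse reads the labels give as missing. The log2 fold change was 0.41 (SE 0.163), and it was 0.25 without control replicate 1 and 0.58 without control replicate 3. The 6 listed RBBP4 pseudogenes together held between 3 and 21 counts in a library, beside 2691 to 4981 for RBBP4.

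LIN37, a subunit needed for repression by DREAM, was at 6.75, 6.68 and 7.69 CPM in CNTNAP2-203 OE and at 6.78, 6.08 and 6.15 CPM in control. Its groups overlapped, and its log2 fold change was 0.15 (SE 0.143). LIN54, the DNA-binding subunit, was at 13.4, 15.6 and 11.3 CPM against 10.7, 12.7 and 13.1 CPM, also with overlap and with a log2 fold change of 0.14 (SE 0.161). LIN37 lies wholly within AD000671.1, a listed gene of the same strand that had 20 counts in CNTNAP2-203 OE replicate 1 and none in the other libraries.

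All 10 members passed the filter on low counts. Of these, 5 had every CNTNAP2-203 OE library above every control (RBL1, LIN9, LIN52, RBBP4 and MYBL2), which was so for 13.7% of all tested genes. FOXM1 was the 1 member with every library below, which was so for 12.8%. In the fit over all genes, at an adjusted p under 0.05, MYBL2 was among the genes called higher (0.798% of all tested genes). FOXM1 was among those called lower (0.596%). The members were chosen on this comparison, so these calls are no test of them and nothing is read from these counts. The median log2 fold change was 0.25 over the members and -0.00 over all tested genes.

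Per gene length, MYBL2 was the most abundant member in both groups, at 40.2 ± 2.93 FPKM in CNTNAP2-203 OE and 25.2 ± 2.56 FPKM in control (SD, n = 3 each). In CNTNAP2-203 OE it was followed by RBBP4 at 10.0 ± 0.291, RBL2 at 8.78 ± 1.601, RB1 at 7.59 ± 3.34, FOXM1 at 6.43 ± 1.12 and RBL1 at 5.97 ± 0.751 FPKM. In control FOXM1 was second at 11.4 ± 1.01, before RBL2 at 10.4 ± 0.786, RB1 at 9.23 ± 1.51, RBBP4 at 7.78 ± 1.79 and RBL1 at 4.50 ± 0.517 FPKM. By group mean, FOXM1 thus stood at rank 2 of the members in control and at rank 5 in CNTNAP2-203 OE. In control replicates 2 and 3, RBL2 lay just above FOXM1. The neighbours from RBL2 to RBL1 in the CNTNAP2-203 OE order overlapped in range, and so did those from FOXM1 to RBBP4 in the control order. The remaining MuvB subunits were lowest. LIN52 was at 3.42 ± 0.443 against 2.78 ± 0.304 FPKM, LIN9 at 2.21 ± 0.233 against 1.76 ± 0.0813 FPKM, LIN37 at 1.98 ± 0.0946 against 1.84 ± 0.1003 FPKM, and LIN54 at 1.600 ± 0.306 against 1.48 ± 0.152 FPKM. LIN9 and LIN37 overlapped in range in both groups.

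**Figure D2:**
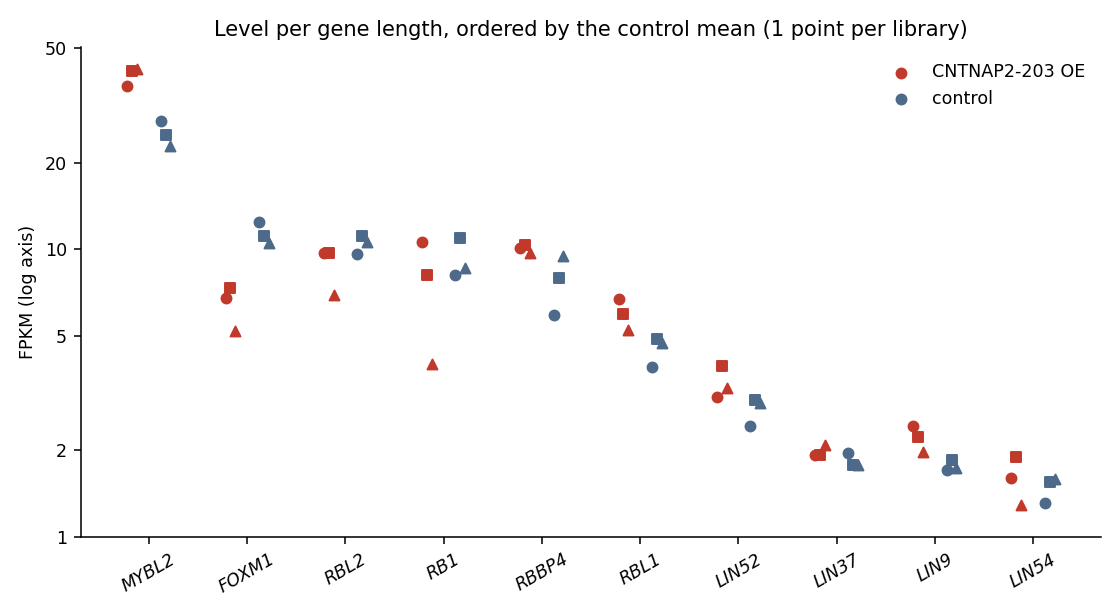
FPKM of each member on a log axis, with 1 symbol per library (circle, square and triangle for replicates 1, 2 and 3) and members ordered by their control mean. MYBL2 leads in every library. By group mean, FOXM1 stands at rank 2 in control and at rank 5 in CNTNAP2-203 OE, and LIN54 is lowest. RBL2 lies just above FOXM1 in control replicates 2 and 3.

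No listed partner or assembly factor of DREAM and MuvB passed the edgeR test over the 6 libraries. Of 10 listed, all tested, none was called there, against 1.39% of all tested genes. An unadjusted p under 0.05 was found for 3 of the 10, and for 3240 of all 18786 tested genes. DESeq2 called 1 of them, and over all genes 650 higher and 475 lower. Nothing is read from these counts, as 10 genes are too few to set them apart from such shares. The median log2 fold change of the partners was 0.20. DYRK1A, the kinase that phosphorylates LIN52 so that DREAM can assemble, was at 18.7, 19.7 and 5.09 CPM in CNTNAP2-203 OE and at 62.2, 28.9 and 63.8 CPM in control. Every CNTNAP2-203 OE library lay below every control, but the libraries varied so widely within both groups that the log2 fold change of -1.83 (SE 0.597) did not pass (adjusted p = 0.218). Without CNTNAP2-203 OE replicate 3, the lowest, it was -1.43, with an adjusted p of 0.196. LATS2, a kinase that promotes DREAM assembly through DYRK1A, was at 22.2 ± 4.03 against 27.0 ± 1.03 CPM (adjusted p = 0.385).

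The DREAM factors E2F4 and E2F5 were at 98.2 ± 10.8 against 81.5 ± 7.94 CPM (SD, n = 3 each) and at 11.3 ± 0.476 against 11.2 ± 1.53 CPM, with adjusted p of 0.304 and 0.967. Their DP partners TFDP1 and TFDP2 had log2 fold changes of 0.31 and -0.11 (adjusted p = 0.168 and 0.596). RBBP7, the close relative of RBBP4 and the partner that DESeq2 called, was at 144 ± 8.53 against 106 ± 8.48 CPM, with the groups apart and an edgeR adjusted p of 0.0876. MYB and MYBL1, the relatives of MYBL2, had log2 fold changes of 0.37 and 1.20 (adjusted p = 0.440 and 0.297), and TESMIN, which shares its DNA-binding domain with LIN54, 0.13 (adjusted p = 0.659). MYBL1 was at 19.2, 24.1 and 6.40 CPM against 5.70, 9.90 and 6.08 CPM. Without CNTNAP2-203 OE replicate 3, TFDP1 (0.38, adjusted p = 0.0377) and MYBL1 (1.58, adjusted p = 0.0410) passed.

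Among kinases and modifiers that act on pocket proteins, MYBL2 or FOXM1, 3 of 17 rose in CNTNAP2-203 OE (17.6%, against 0.798% of all tested genes) and none fell. The log2 fold change was positive in 16, and its median was 0.48. This list and the next ones were chosen with earlier results of these data known, so their shares are a description. The genes that rose were CCNB1, the mitotic cyclin, at 202 ± 19.5 against 126 ± 12.1 CPM (SD, n = 3 each; log2 fold change 0.68, SE 0.115, edgeR adjusted p = 0.0405), its kinase CDK1 at 102 ± 10.4 against 64.5 ± 5.73 CPM (adjusted p = 0.0451), and MELK, a kinase reported to phosphorylate FOXM1, at 98.7 ± 2.45 against 67.8 ± 5.98 CPM (adjusted p = 0.0495). CCNA2, cyclin A2, at 58.0 ± 0.827 against 38.4 ± 5.81 CPM, and CCND3, a D-type cyclin, at 26.3 ± 4.48 against 16.5 ± 1.183 CPM, did not pass (adjusted p = 0.0687 and 0.0795). With 1 control left out, or CNTNAP2-203 OE replicate 1 or 2, no gene of this list was called, and without CNTNAP2-203 OE replicate 3 there were 4. Over all tested genes, the calls of higher genes ranged from 8 to 323 in these fits. DESeq2 called 650 genes higher over all tested genes, and 8 of this list. With DESeq2 size factors in place of TMM, MELK did not pass (edgeR adjusted p = 0.0504). CCNB1 and CDK1 are also on the G2/M list and are counted there again.

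Of 60 listed genes that MuvB, MYBL2 and FOXM1 bind in G2 and mitosis, all tested and none of them a member, 10 rose (16.7%, against 0.798% of all tested genes) and none fell. The log2 fold change was above 0 in 58, with a median of 0.50. In 44 of them every CNTNAP2-203 OE library lay above every control, as in 13.7% of all tested genes, and in none below. Because earlier results were known when the list was chosen, these shares are a description. The 5 with the smallest p were CDC20, which activates the anaphase-promoting complex, at 222 ± 16.4 against 126 ± 11.9 CPM (log2 fold change 0.81, SE 0.108, edgeR adjusted p = 0.0211), the lamin gene LMNB1 at 133 ± 14.7 against 78.2 ± 4.79 CPM, the spindle checkpoint kinase TTK at 49.96 ± 2.45 against 31.2 ± 2.60 CPM, the spindle protein DLGAP5 at 89.7 ± 1.65 against 53.7 ± 7.95 CPM, and ANLN, the anillin of the cleavage furrow, at 288 ± 43.5 against 165 ± 12.7 CPM. The adjusted p of the last 4 lay between 0.0269 and 0.0390.

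These calls depended on the libraries. None of the 10 stood without control replicate 1, 2 or 3 or without CNTNAP2-203 OE replicate 1. Without CNTNAP2-203 OE replicate 2 the list had 1 call and without replicate 3 it had 28, while its median lay between 0.45 and 0.60 in all of these fits. Calls over all tested genes moved as well, from 8 to 323 higher in the same fits, so the swing is not particular to this list. DESeq2 called 650 genes higher over all tested genes, and 36 of these 60. Of 51 of these genes with a RefSeq promoter window, 37 (72.5%) held TTTGAA or TTCGAA. The median log2 fold change was 0.50 for those 37 and 0.50 for the 14 without a match.

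Of 44 listed genes of G1 and S phase that DREAM binds at E2F sites, all tested, 28 rose (63.6%, against 0.798% of all tested genes) and none fell. The log2 fold change was above 0 in each of the 44, and its median was 0.70. In 42 every CNTNAP2-203 OE library lay above every control, as in 13.7% of all tested genes. This list too was chosen with earlier results known, so these shares are a description. TYMS, thymidylate synthase, led at 114 ± 5.46 against 47.7 ± 2.63 CPM (SD, n = 3 each; log2 fold change 1.26, SE 0.0954, edgeR adjusted p = 0.00320). FEN1, a flap endonuclease, was at 116 ± 8.09 against 59.2 ± 2.16 CPM, GINS2, part of the GINS complex of the replication fork, at 49.8 ± 8.65 against 19.6 ± 0.201 CPM, RRM2, the small subunit of ribonucleotide reductase, at 113 ± 4.71 against 62.1 ± 2.47 CPM, and MCM5, a helicase subunit, at 211 ± 9.69 against 116 ± 7.28 CPM, with adjusted p between 0.00930 and 0.0121. Leaving out 1 control left 1 call, whichever control it was. Leaving out CNTNAP2-203 OE replicate 1, 2 or 3 gave 3, 14 and 31 calls. In the fits that leave out 1 library, calls of higher genes over all tested genes ranged from 8 to 323. TYMS was called in all of these fits. Of 36 of these genes with a promoter window, 22 (61.1%) held an E2F word, with a median log2 fold change of 0.76, against 0.67 for the 14 without.

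**Figure D3:**
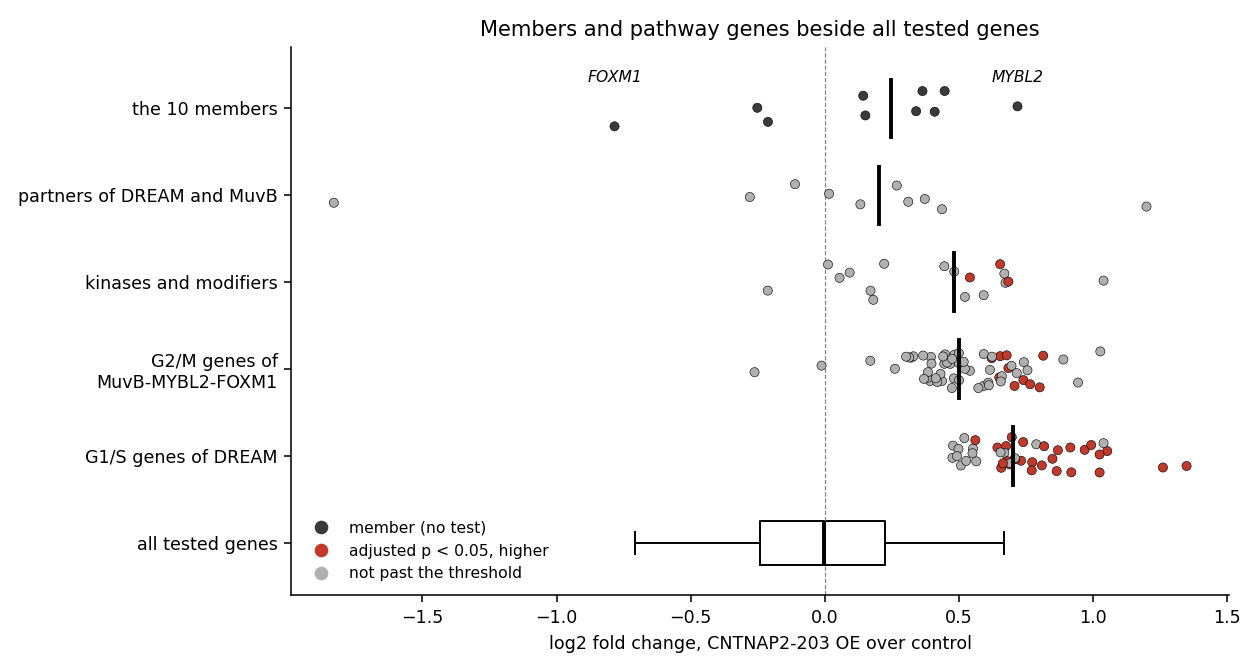
Log2 fold change of CNTNAP2-203 OE over control, 1 point per gene, with bars for medians; the box for all tested genes spans the quartiles and its whiskers the central 90% of genes. FOXM1 lies at -0.78, apart from the 60 listed G2/M genes, of which none was called lower. MYBL2 at 0.72 lies within the range of the G2/M genes and within that of the G1/S genes.

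The values can also be set beside the lists library by library, relative to the control mean, which centres the controls on 0. The median log2 CPM of the 60 G2/M genes was 0.52, 0.56 and 0.53 in CNTNAP2-203 OE replicates 1, 2 and 3, and 0.15, -0.03 and -0.12 in the controls. MYBL2 was at 0.58, 0.73 and 0.85 in CNTNAP2-203 OE and at 0.15, -0.02 and -0.13 in the controls on the same scale. FOXM1 was at -0.72, -0.62 and -1.03 in CNTNAP2-203 OE and at 0.14, -0.04 and -0.10 in the controls. In each CNTNAP2-203 OE library FOXM1 lay more than 1 log2 unit below MYBL2 and the G2/M median. FOXM1 was chosen for its lower level, so this is a description.

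**Figure D4:**
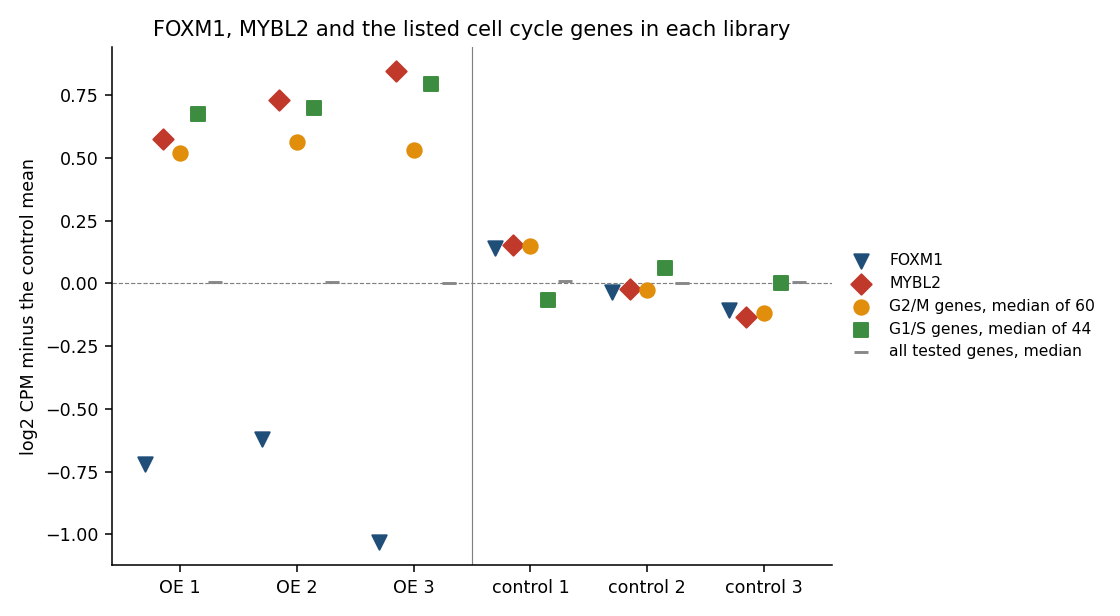
Log2 CPM minus the control mean (vertical axis) in each of the 6 libraries for FOXM1, MYBL2, the medians of the listed G2/M and G1/S genes, and the median of all tested genes. The controls centre on 0 by construction, and in the OE libraries FOXM1 lies between -1.03 and -0.62 while MYBL2 and both list medians lie between 0.52 and 0.85.

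The genes whose profile over the 6 libraries lay nearest to that of FOXM1 were sought among 12476 genes whose average log2 CPM reached 1 and whose symbol is no clone-style, LOC or LINC name. By the root mean square difference in log2 CPM, after centring each gene on its mean, these were PHF21A (0.06), SLC25A25-AS1 (0.06), WHRN (0.07), TNNI1 (0.07) and FBXO39 (0.09). PHF21A, a reader of unmodified histone H3, was at 20.7 ± 2.28 against 34.4 ± 1.85 CPM (SD, n = 3 each). None of these 5 is on the list of G2/M genes, and SLC25A25-AS1 is an antisense gene counted without known strand. Nearest to MYBL2 were LRRC45 (0.03), HYLS1 (0.04), CCNB1 (0.06), WNT7A (0.06) and ZWINT (0.06), and of these CCNB1 is on the G2/M list. LRRC45, a centrosome protein, was at 32.8 ± 3.69 against 20.1 ± 1.71 CPM, and ZWINT, a kinetochore protein, at 51.3 ± 4.35 against 29.3 ± 3.00 CPM. Because such profiles follow the difference between the groups, this likeness carries no test.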

How the data were processed

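RNA of 6 CAL27 libraries was depleted of ribosomal RNA and prepared with the TruSeq RNA v2 kit, per the labels' protocols. Trim Galore 0.4.4 and hg38 are named in the submitters' processing notes. For aligner, counting tool and strand mode, nothing is given in the sources used here. Per the labels, control replicate 1 lacks its reverse reads and was submitted as single-end. The authors deposited raw counts per gene and log2 values. From their relation to the counts, the log2 values are log2(FPKM + 1): the implied gene length varied between libraries by a median of 0.197% with an offset of 1 and by 6.09% with none. FPKM was recovered by undoing that log2.

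The counts were filtered with filterByExpr of edgeR 4.0.16 (R 4.3.3; minimum count 10, leaving 18786 genes), scaled by TMM and tested between the groups by robust quasi-likelihood, with no other term in the model. Called means a Benjamini-Hochberg adjusted p, over all 18786 genes, under 0.05. The SE is |log2 fold change| / √F. On simulated counts the fit missed most genes set to change by the smaller folds and made a larger share of false calls than the threshold sets, so a gene that was not called may still differ. DESeq2 1.42.0 and limma 3.58.1 served as alternatives, with other scalings, no filter, each library left out and a replicate block. Locations are from GENCODE 29 (GRCh38).

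The members and all lists were chosen with earlier results of these data known. Named genes were the members, their overlapping and neighbouring genes, all listed partners, the 5 genes of smallest p in each list with any called against the list's direction, the 5 genes nearest in profile to FOXM1 and to MYBL2, and CNTNAP2. SYNC, AD000671.1 and single markers were named after their values were seen. The kinase list shares 5 genes with the G2/M list and 2 with the G1/S list.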

Additional observations from a re-analysis of the deposited data

How the results depend on the processing

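Of the members, RB1 changed sign, and did so only without CNTNAP2-203 OE replicate 3. The others kept their direction under every scaling, filter, tool and left-out library tried. FOXM1 lay between -0.87 and -0.67 and MYBL2 between 0.65 and 0.80 over these fits. No list gene was called lower under any alternative. Over the fits that leave out 1 library, the genes called higher ranged from 8 to 323 and those called lower from 5 to 237. Calls ranged from 0 to 2 for the partners, from 0 to 4 for the kinases, from 0 to 28 for the G2/M genes and from 1 to 31 for the G1/S genes. DESeq2 called 650 genes higher and 475 lower, with 1 partner, 8 kinases and 36 G2/M genes. Limma-trend on log2 FPKM called 84 higher, with 1 kinase and 2 G2/M genes. Upper-quartile factors gave 1 kinase, and no filter on low counts gave 17 G2/M genes. The cause was not tested. The highest of the left-out ranges came without CNTNAP2-203 OE replicate 3.

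With the replicate number as a block, 11 genes were called higher and 6 lower, with 0 kinases, 0 G2/M genes and 2 G1/S genes. The labels give no shared batch. The deviations of same-numbered libraries correlated at -0.08, 0.05 and -0.03. With 3 libraries in a group this cannot decide whether the numbers pair the libraries. Not every library correlated best with its own number, and CNTNAP2-203 OE and control share only that number. Depth limits LIN37 most, the member with the fewest counts (240 to 286 in a library).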
